A study of Macaca mulatta with 304 samples.

Results

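Whole blood drawn 9 days after irradiation of the upper thorax was compared with blood of the same rhesus macaque drawn 2 days before irradiation. A pair was formed wherever the count table held both an unirradiated column and a Day 9 column for an animal, which gave 24 animals, or 48 of the 304 samples of the series. The animals were adult Macaca mulatta of the Chinese sub-strain. Each one received a single dose to the thorax, 9.8 Gy in the lower dose (LD) group and 10.7 Gy in the higher dose (HD) group. Both groups had 12 paired animals, 6 females and 6 males. A further 4 HD animals had Day 9 blood but no control sample and entered no test against control. The control samples (0 Gy) preceded either dose, and every sample was whole blood collected without separating cells. No animals without irradiation were bled in parallel. Before Day 9 every animal had also been bled on earlier days, fasted and anaesthetised, and an opioid was given from Day 4. Irradiation, handling, drugs and repeated bleeding therefore cannot be told apart in the difference between Day 9 and control.

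Blood RNA comes from cells that live for very different times. Circulating B cells are among the most radiation-sensitive lymphocytes, and T cells and natural killer cells are generally less so. Neutrophils, platelets and the young red cells called reticulocytes are made in the bone marrow and have to be replaced continually. Reticulocytes still hold the mRNA of globins, heme enzymes and membrane proteins that mature red cells have lost. Damaged DNA activates the transcription factor p53, whose targets halt the cell cycle or trigger cell death. Type I interferon switches on a separate set of antiviral genes through short promoter elements. In bulk blood, fewer cells of a type and less RNA per cell cannot be told apart.

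The number of reads counted on genes was between 6676757 and 14609879 per control sample (median 11697186) and between 4186652 and 14334835 per Day 9 sample (median 10533740). Defining blood markers were present in every sample, for example PTPRC (the leukocyte antigen CD45) at 758 to 1630 CPM (counts scaled to a common library size with the upper quartile) in control samples and 1177 to 1869 CPM at Day 9. With 60 genes chosen for a stable level within an animal on Days 3, 6 and 15 only, 24 of 24 controls and 24 of 24 Day 9 samples matched their own animal. The labels give each library a number, and 4 HD animals (2 of each sex) carried the number 0 on both samples. These 4 pairs stood apart from the other 20, which are called numbered here. Their Day 9 libraries held only 4186652 to 4947025 counts and their controls 6676757 to 7153384, against at least 9308602 and 10341473 in the numbered pairs. What the number stands for is not stated.

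The change at Day 9 also moved with base composition. When the tested genes were split by transcript GC content into 10 equal bins, those with the lowest content (29.4 to 39.4% GC) had a median log2 fold change of 0.39, with 17.2% of them called higher and 5 genes lower. In the bin with the highest content (62.2 to 75.6%) the median was -0.25, with 21 genes higher and 70 lower. Across the 13751 genes Pearson's r between GC content and log2 fold change was -0.58, given as a description since genes share libraries. Within single animals r was between -0.71 and 0.10 and was negative in 21 of 24. The 4 number 0 pairs had r between -0.71 and -0.47, and the 20 numbered pairs had a median r of -0.18. Counts of genes are therefore also given with GC content fitted as an offset and for the 20 numbered animals. The part of base composition in the results was not tested further.

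**Figure D1:**
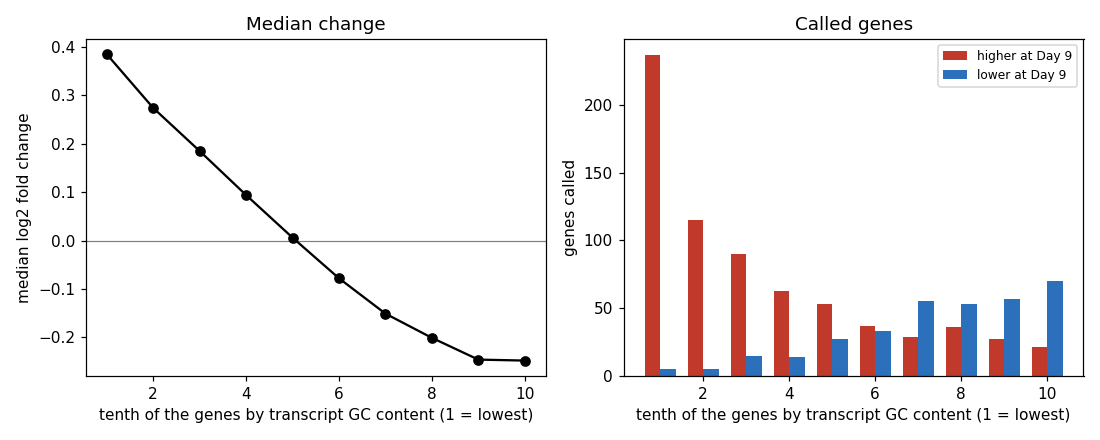
Left, the median log2 fold change (Day 9 over own control, 24 animals) in each of 10 bins of the 13751 tested genes ordered by transcript GC content. Right, bars give the number of genes called higher or lower at Day 9 in the same bins. The median falls from 0.39 in the bin of lowest GC content to -0.25 in the highest, and the 708 higher genes are most frequent in the bins of low GC content.

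At Day 9, 708 genes were higher and 334 lower than in the animals' own controls, which is 7.58% of the 13751 genes tested (5.15% higher and 2.43% lower). A gene was called where the quasi-likelihood test of edgeR, with the animal as a block, gave an adjusted p no higher than 0.05 and the fold change reached 1.5. The median log2 fold change of all tested genes was 0.001. In the 20 numbered animals 595 genes were higher and 243 lower (6.09% of genes, 4.33% higher and 1.77% lower), and with the GC offset 452 were higher and 216 lower (4.86%, 3.29% higher and 1.57% lower). All of these fits and the one with both changes together shared 461 called genes, 311 higher and 150 lower. For no gene did the 24 Day 9 values all lie outside the range of the 24 control values, so each change below is one within animals and not a separation of the groups. Of the 10 named genes with the largest rise HBA, HBB, SLC4A1, XK and PKLR belong to red cells, and of the 10 with the largest fall CD79A and FCRLA to B cells.

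**Figure D2:**
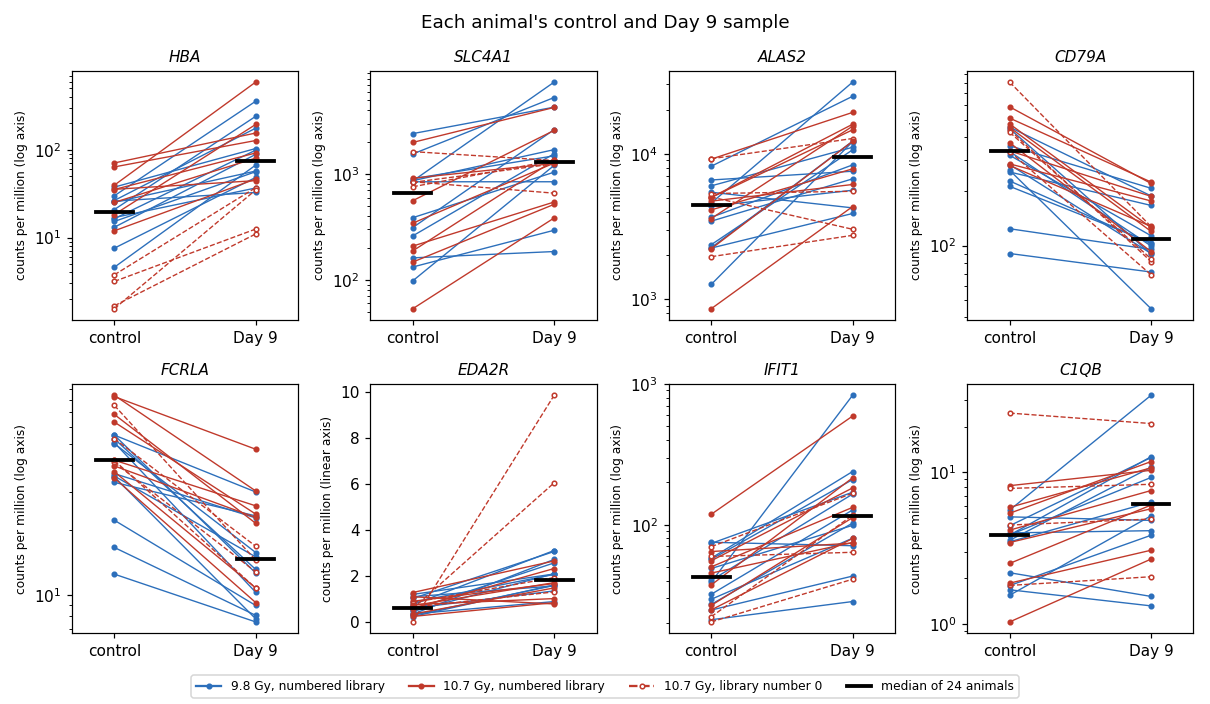
Each line joins the control and the Day 9 sample of 1 animal for 8 genes, in CPM, with colour for the dose, dashes for the 4 animals of library number 0 and a black bar at the median of 24 animals. The axes are logarithmic except for EDA2R, which has control values of 0. HBA rose in 24 of 24 animals and CD79A and FCRLA fell in 24 of 24, while the median log2 changes of SLC4A1, ALAS2 and C1QB in the number 0 animals were only 0.15, 0.26 and 0.11.

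Genes of red cells were higher at Day 9. Of 18 tested genes of globin and heme synthesis, 9 were called higher and none lower, and the median log2 fold change was 0.63. Of 18 genes of the red cell membrane and skeleton, 15 were higher and none lower (median 0.94), and of 25 erythroid regulators and maturation genes 17 were higher and none lower (median 0.83). Against these counts stand 5.15% of all tested genes called higher and a median of 0.001. The counts were 10, 16 and 17 in the numbered animals and 11, 15 and 18 with the GC offset.

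HBA (alpha globin, chromosome 20, 190724 to 191412 of Mmul_10) had the largest rise of the named genes. It had 1.54, 19.6 and 70.8 CPM as the lowest, median and highest control value and 10.98, 73.7 and 591 CPM at Day 9. Its level rose in 24 of 24 animals, with a log2 fold change of 2.23 ± 0.23 (SE, edgeR adjusted p = 3.37e-08). The lowest control value and the lowest Day 9 value were those of number 0 animals, and without them the log2 fold change was 2.11. HBB (beta globin, chromosome 14, 63067679 to 63069138) went from 3.64, 87.98 and 327 CPM to 11.5, 320.0 and 2461 CPM, a log2 fold change of 1.70 ± 0.24 with 22 of 24 animals higher. The groups overlapped widely for both genes. Near-identical globin copies can share reads, and the kit used to remove ribosomal RNA also targets globin mRNA, so these are levels of what was left.

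ALAS2, the erythroid enzyme that starts heme synthesis (chromosome X, 54735685 to 54755120), was next. It had 861, 4471 and 9247 CPM in controls and 2751, 9517 and 31119 CPM at Day 9, with a log2 fold change of 1.2 ± 0.21 (edgeR adjusted p = 5.34e-05) and 22 of 24 animals higher. FECH, which inserts iron in the last step of the same pathway, had a log2 fold change of 1.13 ± 0.18. The enzymes between them moved less. UROD (0.44), UROS (0.38), ALAD (0.28), PPOX (0.17) and CPOX (0.11) were under the threshold of fold change, which UROD passed with the GC offset (0.61). AHSP, the chaperone of free alpha globin, was higher by 0.88 ± 0.18, but its log2 fold change was -0.12 in the 4 number 0 animals alone.

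The anion exchanger SLC4A1 (band 3, chromosome 16, 55510407 to 55531543) led the membrane genes. Its lowest, median and highest values were 53.2, 660.0 and 2415 CPM in controls and 185, 1308 and 7416 CPM at Day 9, with a log2 fold change of 1.44 ± 0.22 (edgeR adjusted p = 1.64e-05) and 22 of 24 animals higher. ADD2 (adducin) had a log2 fold change of 1.42, XK 1.39 with 24 of 24 animals higher, and EPB42 (protein 4.2) 1.19. The spectrin chain SPTB (0.37) and its partner ankyrin, ANK1 (0.38), were not called, but both passed with the GC offset (0.59 and 0.60). Among the regulators KLF1, the transcription factor that activates beta globin, had a log2 fold change of 1.35 ± 0.23 and GATA1 0.69 ± 0.15. TRIM58, a ubiquitin ligase of late erythroblasts, rose in 24 of 24 animals (1.37 ± 0.23) and the survival factor BCL2L1 by 1.00 ± 0.19. SELENBP1, at 1.53 ± 0.24 over all animals, was at -0.18 in the 4 number 0 animals. PKLR, the pyruvate kinase of red cells, had a log2 fold change of 1.59 ± 0.19 and was among the 10 highest named genes.

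Promoters of the red cell lists were searched on both strands for AGATAA, the letters bound by GATA factors, and for CCNCACCC, the CACC box bound by KLF1. The window was the 250 bases before the annotated gene start, from the Mmul_10 genome and RefSeq gene models. AGATAA stood in 3 of 18 globin and heme promoters, 3 of 18 membrane promoters and 4 of 25 regulator promoters (16 to 16.7%), and in 6.86% of all 13651 tested promoters of that length. The CACC box stood in 27.8, 33.3 and 24% of the lists and in 16.8% of all promoters. For comparison, the promoters of the B cell surface list held AGATAA in 5 of 23 and the CACC box in 6 of 23. Some gene models start at or near the start codon, so their windows may miss the true start. The window of EPB42, chosen after its values were seen, is shown because the gene was called and its window holds the GATA letters, which are in capitals. It lies on the minus strand, at chr7:19720927-19721176.
EPB42: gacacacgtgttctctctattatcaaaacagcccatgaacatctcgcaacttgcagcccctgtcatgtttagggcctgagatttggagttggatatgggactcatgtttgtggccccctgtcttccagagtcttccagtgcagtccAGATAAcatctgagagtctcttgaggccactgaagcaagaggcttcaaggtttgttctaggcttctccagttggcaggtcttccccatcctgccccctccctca
The CACC letters do not occur in this window. A match is a string of letters and not evidence of binding.

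The rise differed much between animals. As the mean over the genes of the membrane list, the change within an animal was between -0.19 and 2.46 in LD animals (median animal 0.77). In the 8 numbered HD animals it was between 0.21 and 1.91 (median animal 1.25). In the 4 number 0 animals it was between -0.52 and 0.42. The list was up in 11 of 12 LD animals, in 8 of 8 numbered HD animals and in 2 of the 4 number 0 animals. The globin and heme list had the same counts of animals.

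**Figure D3:**
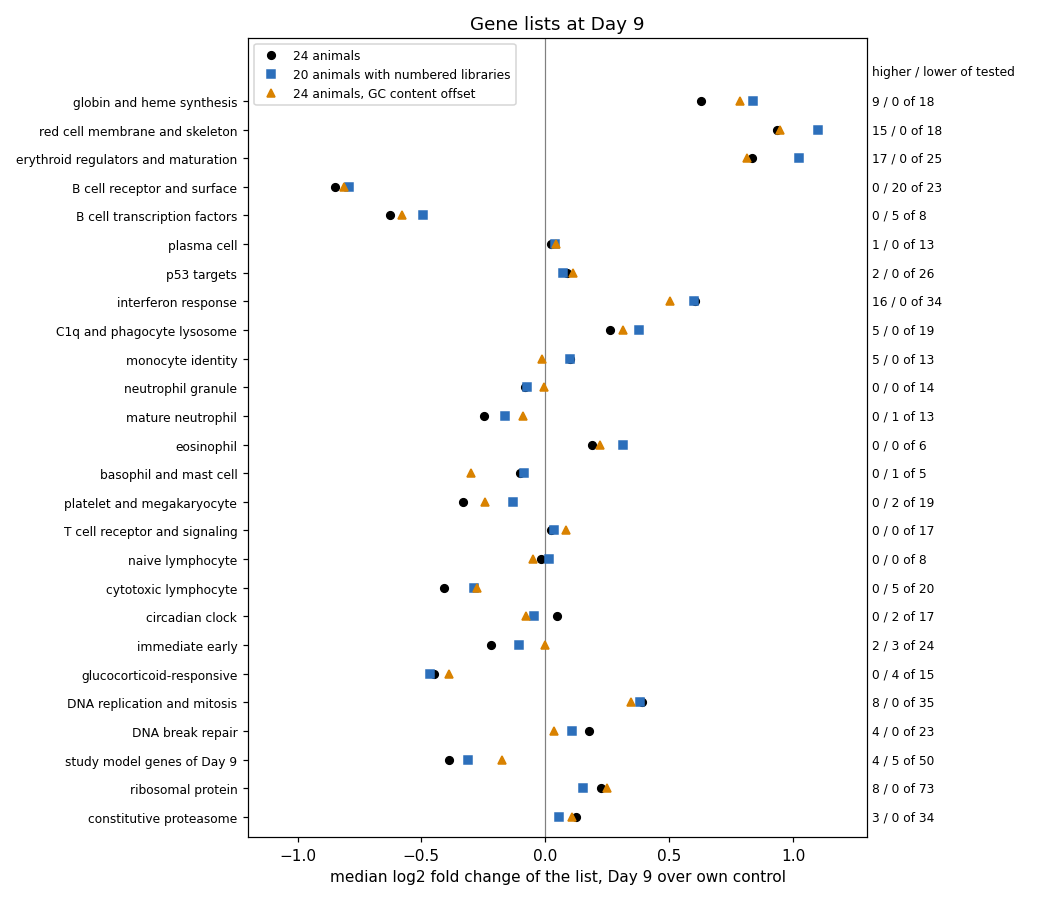
Each row is a gene list, and symbols give the median log2 fold change of its tested genes, Day 9 over own control, for all 24 animals (black), for the 20 animals with numbered libraries (blue) and with the GC content offset (orange). Numbers on the right give the genes called higher and lower of those tested, in all 24 animals. The 3 red cell lists lie at 0.63 to 0.94, the interferon list at 0.60 and the B cell lists at -0.85 and -0.63.

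B cell genes were lower at Day 9. Of 23 tested genes of the B cell receptor and surface 20 were called lower and none higher, and their median log2 fold change was -0.85. Of all tested genes 2.43% were called lower. Of 8 B cell transcription factors 5 were lower and none higher (median -0.63). With the GC offset the counts were 17 and 4, and in the numbered animals 17 and 3. The mean change of the surface list within an animal was negative in 23 of 24 animals. It was between -1.83 and 0.04 in LD animals (median -0.84), between -1.29 and -0.24 in the 8 numbered HD animals (median -0.75) and between -1.34 and -1.22 in the 4 number 0 animals.

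CD79A, the signalling chain of the B cell receptor (chromosome 19, 41019374 to 41024437), had 90.4, 334 and 809 CPM as the lowest, median and highest control value and 44.6, 108.7 and 225.4 CPM at Day 9. It was lower in 24 of 24 animals, with a log2 fold change of -1.50 ± 0.14 (edgeR adjusted p = 7.37e-09) and -1.32 in the numbered animals. Its partner chain CD79B had a log2 fold change of -1.21 ± 0.13 and was also lower in 24 of 24. All animals moved down for both genes, although the highest Day 9 value of CD79A lay well inside its control range.

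The Fc receptor-like genes of B cells fell by different amounts. FCRLA, an intracellular member (chromosome 1, 89281207 to 89288914), had 12.5, 42.1 and 84.1 CPM in controls and 7.53, 14.8 and 47.3 CPM at Day 9 (log2 fold change -1.44 ± 0.11, lower in 24 of 24). FCRL5 had -1.25 ± 0.12, FCRL2 -0.86, FCRL1 -0.73 and FCRL3 -0.65. MS4A1, which encodes CD20, had a smaller log2 fold change of -0.64 ± 0.17, with 19 of 24 animals lower. CR2 (-0.39), PLCG2 (-0.50) and BTK (-0.23) were not called. Of the factors that hold B cell identity, PAX5 was at -1.01 ± 0.13, BCL11A at -0.90 ± 0.13 and EBF1 at -0.69, and IRF8, TCF3 and TCF4 were not called.

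Plasma cell genes did not follow. JCHAIN, which joins polymeric antibodies (chromosome 5, 63087828 to 63120109), was the only one of 13 tested plasma cell genes called. It was higher, beside 5.15% of all tested genes called higher. A second one joined it when B1502 or B2502 was left out, in the numbered animals and with the GC offset. Its lowest, median and highest values were 25.8, 127 and 347 CPM in controls and 144, 243 and 686 CPM at Day 9, with a log2 fold change of 1.21 ± 0.23 (edgeR adjusted p = 0.000165) and 21 of 24 animals higher. The change within an animal reached 4.15 in the number 0 animals (median 2.90) and was 0.94 over the numbered animals. The receptor TNFRSF17 had 0.44, XBP1 0.03, PRDM1 -0.12 and MZB1 -0.24, and none of them passed.

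Interferon-induced genes were higher in part. Of 34 tested genes 16 were called higher, none lower and 18 not at all, beside 5.15% of all tested genes called higher, and the median log2 fold change was 0.60. The count was 15 in the numbered animals and 14 with the GC offset. IFIT1, an antiviral RNA-binding protein (chromosome 9, 89628584 to 89669645), had 20.4, 42.8 and 118.5 CPM in controls and 28.4, 114.5 and 832 CPM at Day 9. It was higher in 23 of 24 animals, with a log2 fold change of 1.51 ± 0.18 (edgeR adjusted p = 5.54e-07). IFI44L had 1.57 ± 0.36, CMPK2 1.29 ± 0.21, IFI44 1.27 ± 0.30, RSAD2 (viperin) 1.25 ± 0.27 and ISG15, the ubiquitin-like modifier, 0.98 ± 0.31.

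Other well-known members of the interferon list were not called. MX1 had a log2 fold change of 0.39 ± 0.25 with 17 of 24 animals higher, and OAS1 0.30 ± 0.18 with 12 of 24. The factors that carry the signal, STAT2 (0.09), IRF9 (-0.09) and IRF7 (0.11), stayed near 0. The spread between animals was wide. The mean change of the list within an animal was between -0.73 and 3.50, positive in 19 of 24. The 3.50 was that of 1 LD male, followed by an HD female at 2.31 and an LD female at 2.13. Without this male 14 of the 34 genes were called, which no longer included SAMD9L (0.56) and DDX58 (0.52), and ISG15 had a log2 fold change of 0.80. Over the 24 fits that each left out 1 animal the count was 14 to 18.

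Promoters of the interferon list held the core of the interferon-stimulated response element (GAAA, any 2 bases, then GAAA), on either strand, in 10 of 34 genes (29.4%). It was found in 389 of 13651 promoters of all tested genes (2.85%), in 1 of 23 promoters of the B cell surface list and in none of the red cell membrane list. IFIT2 (log2 fold change 1.06 ± 0.30) and ISG15 are shown because each was called and holds 2 matches, in capitals. IFIT2 lies on the plus strand with its window at chr9:89563210-89563459, and ISG15 on the minus strand with its window at chr1:223405103-223405352.
IFIT2: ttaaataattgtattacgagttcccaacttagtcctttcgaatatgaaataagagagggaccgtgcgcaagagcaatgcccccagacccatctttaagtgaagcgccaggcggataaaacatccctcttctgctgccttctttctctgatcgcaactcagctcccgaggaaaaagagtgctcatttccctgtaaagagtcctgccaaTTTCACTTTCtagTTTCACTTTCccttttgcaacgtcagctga
ISG15: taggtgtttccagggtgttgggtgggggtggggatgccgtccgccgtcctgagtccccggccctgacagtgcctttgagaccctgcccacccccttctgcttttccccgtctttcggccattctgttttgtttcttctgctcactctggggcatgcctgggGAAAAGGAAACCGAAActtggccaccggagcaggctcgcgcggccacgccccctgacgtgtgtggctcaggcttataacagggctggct
The IFIT2 matches begin 43 and 30 bases before the gene start. Those of ISG15 begin 89 and 83 bases before it and overlap. IFIT1, with the largest rise of the IFIT genes, held no match in this window.

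Most targets of p53 were near control level. Of 26 tested targets 2 were called higher and none lower, and the median log2 fold change was 0.09, beside 5.15% of all tested genes called higher. EDA2R, a receptor of the tumour necrosis factor family (chromosome X, 63547115 to 63592375), went from 0, 0.62 and 1.28 CPM to 0.78, 1.82 and 9.84 CPM. It was higher in 23 of 24 animals (log2 fold change 1.65 ± 0.23, edgeR adjusted p = 4.55e-06), at a level of few counts per library. The 2 highest Day 9 values belonged to number 0 animals, and without these animals the log2 fold change was 1.46. CCNG1 (cyclin G1) was called at 0.63 ± 0.13 but not with the GC offset (0.29), in the numbered animals (0.48) or without animal B2504 (0.58), a number 0 female.

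CDKN1A, the cell cycle inhibitor p21, had 33.5, 46.6 and 84.7 CPM in controls and 25.5, 44.6 and 86.98 CPM at Day 9 (log2 fold change -0.09 ± 0.08, edgeR adjusted p = 0.372). Its sign turned in the numbered animals (0.02) and with the GC offset (0.05). MDM2 (0.02), BAX (-0.11), FDXR (-0.11) and DDB2 (0.19) were also not called. Of 23 tested genes of DNA break repair 4 were higher (NBN, BRCA2, BRIP1 and LIG4) and none lower, beside 5.15% of all tested genes called higher. The count was 4 in the numbered animals, and only NBN was called with the GC offset. NBN, a part of the complex that senses broken ends, had 34.5, 150 and 383 CPM in controls and 63.8, 311 and 1095 CPM at Day 9 (1.06 ± 0.13). The transcripts of the other 3 had 36.1 to 36.7% GC, the lowest GC content of the 23.

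Of 35 tested genes of DNA replication and mitosis 8 were higher and none lower (median 0.39, beside 5.15% of all tested genes called higher). The count was 8 in the numbered animals and 5 with the GC offset. The 8 were CDK1 (0.87 ± 0.16), the spindle checkpoint kinases BUB1B (0.84 ± 0.12) and BUB1 (0.80), NUSAP1, CCNB2, KIF11, TOP2A and PBK, which act in mitosis. CDK1 (0.47), TOP2A (0.38), KIF11 (0.42) and PBK (0.40) were not called with the GC offset. TOP2A, a topoisomerase of dividing cells, went from 5.05, 12.5 and 21.7 CPM to 11.8, 20.2 and 47.9 CPM and was higher in 24 of 24 animals. SGO2, which protects the cohesion of chromosomes and was not on the list, had the largest rise of this kind, 1.45 ± 0.16 in 24 of 24 animals. MKI67 (0.39) and PCNA (0.23) were not called, and the helicase subunits MCM3 (-0.12), MCM5 (-0.35) and MCM7 (-0.28) had the opposite sign.

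Some genes of complement C1q and of lipid-handling phagocytes were above control. Of 19 tested genes 5 were higher, none lower and 14 not called (median 0.26, beside 5.15% of all tested genes called higher), 6 in the numbered animals and 5 with the GC offset. LPL, lipoprotein lipase, had 5.16, 12.8 and 23.1 CPM in controls and 10.8, 28.0 and 61.8 CPM at Day 9 (log2 fold change 1.16 ± 0.11, 23 of 24 animals higher). SELENOP, which carries selenium, had 1.04 ± 0.10 in 24 of 24 animals. C1QB (chromosome 1, 202117786 to 202126077) had 1.03, 3.86 and 24.6 CPM in controls and 1.315, 6.22 and 32.2 CPM at Day 9, with a log2 fold change of 0.82 ± 0.15 and 20 of 24 animals higher. Its partners C1QC (0.72 ± 0.19) and C1QA (0.60 ± 0.15) were called as well, but in the 4 number 0 animals alone they were at -0.22 and -0.26. C1QA stood close to the fold threshold, and leaving out any one of 9 animals took it below (0.53 to 0.58). Scavenger receptors and lysosomal genes such as VSIG4 (0.22), MRC1 (0.12), CD68 (0.18) and CTSD (-0.25) were not called.

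Monocyte genes split. Of 13 tested 5 were higher, MS4A7, KLF4, LYZ and CD36 among them, and none lower, beside 5.15% of all tested genes called higher. The count was 4 in the numbered animals and 4 with the GC offset. MS4A7 had a log2 fold change of 0.97 ± 0.11, KLF4, a factor of monocyte differentiation, 0.96 ± 0.13 and lysozyme, LYZ, 0.85 ± 0.16. KLF4 was at -0.11 in the 4 number 0 animals. CD14 (-0.43), CSF1R (-0.22), CD163 (-0.24) and CCR2 (-0.06), which define blood monocytes, were not called.

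Granulocyte, T cell and naive lymphocyte lists showed little. None of 14 tested neutrophil granule genes, 6 eosinophil genes, 17 T cell genes and 8 naive lymphocyte genes was called, with medians between -0.08 and 0.19. In the neutrophil lists the mean change within an animal lay on both sides of 0. Of all tested genes 5.15% were called higher and 2.43% lower. Of 13 genes of mature neutrophils 1 was lower, ALPL (-0.99 ± 0.17), and CSF3R (-0.33), CXCR2 (-0.28) and S100A9 (-0.02) were not called. Of 5 basophil genes 1 was lower, the factor GATA2 (-0.60 ± 0.12), which was not called in the numbered animals (-0.46), with the GC offset (-0.37) or without any one of animals B1501, B1503, B2003, B2504 and B2505 (-0.58 to -0.54). Leaving out B1504, B1505 or B2001 gave 1 higher gene among the mature neutrophil genes. Of the T cell genes CD3D was at 0.45, CD3E at -0.14 and CD8A at -0.10.

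Cytotoxic lymphocyte genes were partly lower. Of 20 tested 5 were lower (NCR1, GNLY, PRF1, TBX21 and GZMH) and none higher, beside 2.43% of all tested genes called lower. The median log2 fold change was -0.41. The count was 3 in the numbered animals and 2, NCR1 and GNLY, with the GC offset. NCR1, an activating receptor of natural killer cells, went from 12.5, 24.1 and 87.5 CPM to 5.09, 15.0 and 40.6 CPM (-0.94 ± 0.11, lower in 23 of 24). GNLY, the granule protein granulysin, had -0.84 ± 0.11 and the pore protein PRF1 -0.82 ± 0.14. GZMB (-0.56) was just short of the fold threshold, and GZMA (0.06) and GZMK (0.05) were near 0.

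Platelet genes had a median of -0.33. Of all tested genes 2.43% were called lower. Of 19 tested platelet genes 2 were lower, NRGN (-0.75 ± 0.22) and ITGA2B (-0.62 ± 0.22), the integrin chain of platelets, and none was higher. Neither was called in the numbered animals (-0.46 and -0.39) or with the GC offset (-0.49 and -0.44). The count of lower genes was 6 without LD male B1006, and it was 1, without ITGA2B, when any one of B1004, B1501, B1502, B1503, B2005, B2503, B2504 and B2505 was left out. ITGA2B had 37.4, 167 and 477 CPM in controls and 27.4, 87.5 and 489 CPM at Day 9. The mean change of the list within an animal was between -1.58 and -0.89 in the 4 number 0 animals. It was between -1.17 and 0.60 in the 8 numbered HD animals and between -1.04 and 1.43 in LD animals.

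Genes that respond to glucocorticoids were lower in part. Of 15 tested 4 were lower (PER1, TSC22D3, DDIT4 and ZBTB16) and none higher, beside 2.43% of all tested genes called lower. The median was -0.45. The count was 5 in the numbered animals, which added IL1R2, and 1, TSC22D3, with the GC offset, and it was 2 without LD male B1001. TSC22D3, also called GILZ, had 748, 1274 and 3133 CPM in controls and 574, 855 and 1156 CPM at Day 9 (-0.70 ± 0.11, lower in 22 of 24). FKBP5, a co-chaperone of the receptor, had -0.39 ± 0.08 and was not called. Of 17 clock genes 2 were lower, beside the same 2.43%, namely PER1 (-0.77 ± 0.12) and BHLHE41 (-0.75 ± 0.08), and none was higher. The count was 3 in the numbered animals and 1, BHLHE41, with the GC offset. CRY2, a repressor of the clock, was lower in 23 of 24 animals, but by only -0.33 ± 0.06, under the fold threshold. The hours at which blood was drawn were not used here.

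Of 24 immediate early genes 2 were higher and 3 lower, beside 5.15% of all tested genes called higher and 2.43% lower. ATF3 had a log2 fold change of 0.77 ± 0.13 and CD69 0.67 ± 0.22, and EGR3 (-0.88 ± 0.16), NR4A2 (-0.76 ± 0.14) and JUN (-0.63 ± 0.08) were lower. JUN went from 12.6, 18.1 and 24.2 CPM to 6.41, 12.3 and 15.7 CPM and was lower in 23 of 24 animals, but it was not called in the numbered animals (-0.54) or with the GC offset (-0.38). CRY2, JUN, EDA2R and CD79A are among 50 tested genes that the study's models kept for Day 9 on these samples. The list is therefore no independent evidence of a direction. Of the 50, 4 were higher and 5 lower (EDA2R, RFK, BRCA2 and PCGF5 against CD79A, DGKD, ZHX2, GNG7 and JUN), beside the same 5.15% and 2.43%. With the GC offset 3 were higher and 1, CD79A, lower. Without B1002, B1504 or B2001 the count of lower genes was 8.

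Some of the largest changes fell outside the lists. DENND2A, an activator of the Rab9 GTPase (chromosome 3, 166931110 to 167057787), had 3.94, 22.2 and 47.6 CPM in controls and 1.321, 5.34 and 18.7 CPM at Day 9. It was lower in 24 of 24 animals, with a log2 fold change of -1.66 ± 0.14. The growth factor receptor FGFR1 (-1.54 ± 0.15), the orphan adhesion receptor ADGRB2 (-1.37 ± 0.17) and the transcription factor SOX5 (-1.36 ± 0.13) were also lower in 24 of 24. The secreted ligand WNT7B had the largest fall of the named genes, -1.72 ± 0.17, with 22 of 24 animals lower, and CCDC187 had -1.42 ± 0.15. The integrin chain ITGAD (chromosome 20, 28843653 to 28877810) had the smallest p of the named genes (edgeR adjusted p = 8e-11). Its lowest, median and highest values were 35.5, 94.8 and 181 CPM in controls and 12.5, 35.7 and 75.7 CPM at Day 9, a log2 fold change of -1.35 ± 0.09 with 24 of 24 lower. TBKBP1 (-1.07 ± 0.08) and PHACTR1 (-0.75 ± 0.06) were lower in 24 of 24 as well. Among the higher genes PRSS47 (1.72 ± 0.21) and the calcium-binding protein NECAB1 (1.59 ± 0.18) belonged to no list. All of these genes were called in the numbered animals and with the GC offset.

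The doses were compared next. In LD animals 517 genes were higher and 220 lower than control (5.36% of tested genes called, 1.6% lower), and in HD animals 869 were higher and 699 lower (11.4%, 5.08% lower). In the 8 numbered HD animals the count was 698, of which 479 were higher (5.08% of genes called), a test with fewer animals, and with the GC offset and all 12 HD animals it was 657. The difference between the doses was called for 0 genes by edgeR with the animal as a block, with 1357 genes (9.87%) at an unadjusted p under 0.05 and 315 in the numbered animals. DESeq2 called 25 genes, 6 of them higher and 19 lower in HD. SLC4A1 had a log2 fold change of 1.60 in LD and 1.28 in HD animals (difference -0.33 ± 0.45), and CD79A -1.27 and -1.73 (difference -0.46 ± 0.26). The HD values of both genes include the number 0 animals, which alone had 0.19 for SLC4A1 and -2.43 for CD79A. Over the numbered animals of both doses the values were 1.69 and -1.32. For IFIT1 the values were 1.56 and 1.46, and for EDA2R 1.70 and 1.59. Of the 34 interferon genes 4 were called higher in LD and 16 in HD animals (beside 3.76% and 6.32% of all tested genes), with medians of 0.59 and 0.66. The platelet list had a median of -0.03 in LD and -0.62 in HD animals with 0 and 11 genes lower, and cytotoxic genes -0.19 and -0.67 with 2 and 11 lower. The number 0 animals were all in the HD group.

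In females 689 genes were higher and 354 lower (7.58%), and in males 560 were higher and 287 lower (6.16%). Among numbered animals 685 genes were called in the 10 females and 665 in the 10 males. With the GC offset the order turned, with 426 genes in females (3.1%) and 621 in males (4.52%). The difference between the sexes was called for 0 genes by edgeR with 0.807% of genes at an unadjusted p under 0.05, and DESeq2 also called 0.

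Day 9 was then compared with other draws of the same animals, with no control sample in these tests. Against Day 3, 1037 genes were higher and 797 lower in 24 animals (13.3% called, 7.54% higher and 5.8% lower). With TMM scaling the split was 648 and 1073, with DESeq2 760 and 994 and with the GC offset 381 and 642, so which direction had more genes depends on the scaling. The steepest falls were those of C1q genes. CDKN1A fell in 24 of 24 animals, by 1.67 on the log2 scale (SE 0.10), from a median of 151 CPM on Day 3. C1QA, C1QC and C1QB had log2 fold changes of -2.56, -2.50 and -2.23 and were each lower in 24 of 24. EDA2R fell by 1.04. All 19 platelet genes were lower (median -1.65), and 17 of 19 C1q and phagocyte genes. Red cell lists differed little from Day 3. Higher were 1 of 18 globin and heme genes, 1 of 18 membrane genes and 1 of 25 regulators (medians 0.083, 0.165 and 0.179), and 1 regulator was lower. Of 34 interferon genes 2 were higher and 2 lower (median 0.077), and 0 were called with the GC offset. HBA was the 1 globin and heme gene called higher with that offset (1.28). Of the B cell surface genes 4 of 23 were higher, and SOX5 was higher by 0.69 ± 0.12. With the GC offset 2 of the 23 were higher and SOX5 (0.29) was not called. MAP3K7CL (-1.71 ± 0.17), lower in 24 of 24, and TPPP3 (-1.68 ± 0.20) fell, whereas SLC28A3, a nucleoside transporter, was higher by 1.54 ± 0.20, POU1F1 by 1.36 and TMEM272 by 1.23.

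Against Day 6, 632 genes were called at Day 9 in 28 animals (4.6%), 425 of them higher (3.09%) and the rest lower (1.51%). With TMM scaling the split was 269 and 312 and with DESeq2 291 and 318, so here too the direction with more genes depends on the setting. Platelet genes were again lower, 14 of 19 (median -0.73), with NRGN at -0.87 ± 0.10 in 27 of 28 animals. Neutrophil granule genes were lower for 7 of 14 and mature neutrophil genes for 5 of 13 (medians -0.55 and -0.51), and C1q and phagocyte genes for 6 of 19. Red cell genes did not rise between these days: 2 of 18 globin and heme genes were lower, AHSP among them (-0.62 ± 0.11), and none of the 18 membrane genes was called. Among the largest rises were those of the serotonin receptor HTR1F (0.93) and the kinase WNK3 (0.93 ± 0.08, higher in 28 of 28). MAP3K7CL, TPPP3 and MBOAT2 were lower by 1.00 or more on the log2 scale.

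Between Day 9 and Day 15 the red cell genes rose further. Of 393 genes called in 24 animals (2.86%), 363 were higher on Day 15 (2.64%) and 30 lower (0.218%). Higher were 12 of 18 globin and heme genes, 16 of 18 membrane genes and 20 of 25 erythroid regulators (medians 0.76, 0.98 and 0.86). AHSP had 1.27 ± 0.19, HYAL3 1.24 ± 0.22 and the mitochondrial carrier SLC25A39 1.22 ± 0.21. Platelet genes turned as well, with 13 of 19 higher (median 0.67). JCHAIN fell by 0.77, EDA2R by 0.82 and the ubiquitin ligase HECTD2 by 0.59 on the log2 scale, and none of the 23 B cell surface genes was called (median 0.28). With the GC offset only EDA2R of these 3 was still called (-0.77), with JCHAIN at -0.55 and HECTD2 at -0.39, and 10 of the 18 globin and heme genes were higher.

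In levels, the median of HBA was 19.6 CPM in controls and 39.04, 80.7, 73.7 and 174.7 CPM on Days 3, 6, 9 and 15. That of CD79A was 334 CPM in controls and 135.5, 133.7, 108.7 and 164.1 CPM on these days. The C1QB median reached 30.9 CPM on Day 3 and was 11.99, 6.22 and 4.87 CPM afterwards. By Day 9 the C1QB level had come down from Day 3, that of HBA had not yet reached its Day 15 value, and CD79A was at its lowest median of these days.

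**Figure D4:**
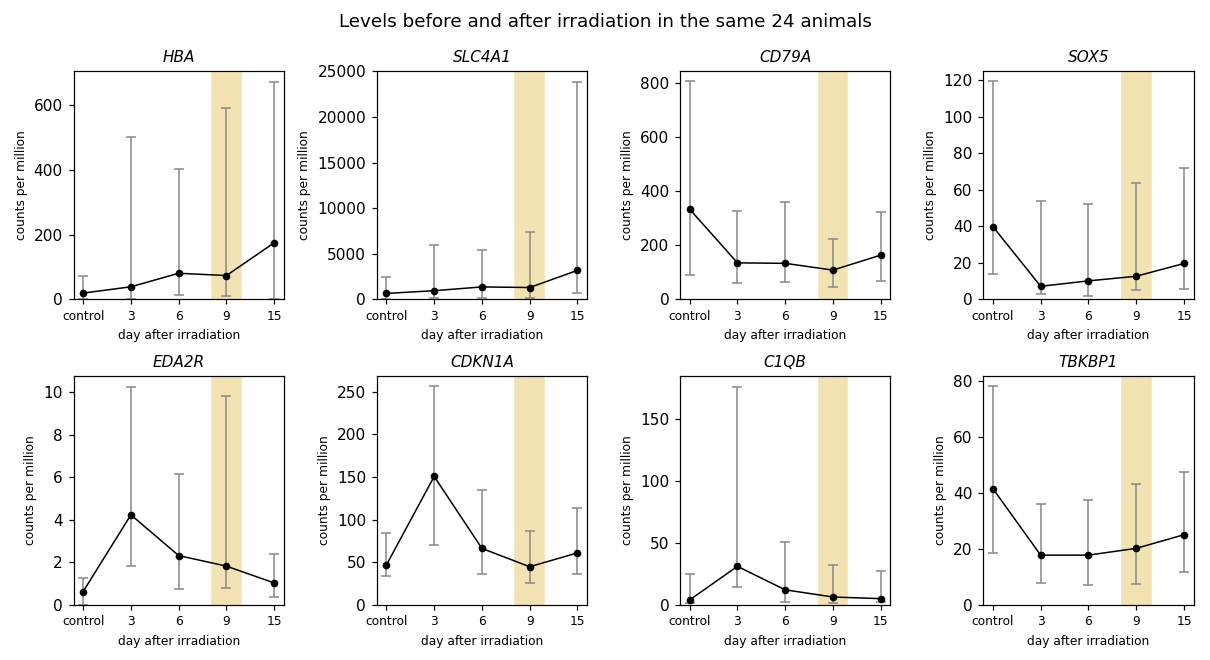
Points give the median CPM of 8 genes in the same 24 animals before irradiation and on Days 3, 6, 9 and 15, and bars reach from the lowest to the highest animal. The shaded band marks Day 9. The medians of CDKN1A and C1QB were highest on Day 3, that of EDA2R was still above control on Day 9, those of CD79A, SOX5 and TBKBP1 stayed below control, and that of SLC4A1 was highest on Day 15.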

How the data were processed

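Whole blood RNA was sequenced as ribosomal RNA-depleted, stranded total RNA libraries. Per the labels and the study's methods, the authors trimmed reads with cutadapt 2.10, aligned them to Mmul_10 with STAR 2.7.6a and counted them per RefSeq gene with Subread 2.0.1. Whether counting used the strand is not given in the sources used here. The deposited counts are raw whole numbers for 21070 genes. The deposited log2 values were used here only for an alternative with limma 3.58.1. The study's methods describe a filter on low counts, scaling by the upper quartile and a conditional quantile step for GC content. In 304 of 304 samples genes of equal count had equal deposited log2 values, so the file holds no correction that differs between genes. Which scaling between samples it holds was not checked.

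A gene was kept where 80% or more of the 304 samples had 3 counts or more (13751 genes). Counts were scaled by the upper quartile and tested with edgeR 4.0.16 (glmQLFit and glmQLFTest in R 4.3.3), the animal entering as a block, and p was adjusted over all tested genes by Benjamini-Hochberg. Called means an adjusted p no higher than 0.05 with a fold change reaching 1.5, and a difference between doses or sexes at the adjusted p alone. Adjusted p-values in the text are from this test. The scripts were tested on simulated data. Pairs come from the animal named in the labels. Own-animal correlations of deviations from the group means were between -0.17 and 0.67, and 20 of 24 controls correlated best with the Day 9 sample of their own animal.

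The members and gene lists were chosen with earlier results of these data known. Lists are described by counts, by medians and, within an animal, by the mean over their genes, with no test. Named genes are those called with the same sign in at least 22 of 24 animals and without a LOC name: the 10 highest, the 10 lowest and the 5 smallest p, the top 2 of each list, and the 3 highest and 3 lowest of each comparison between days with the same sign in 90% of animals. Other list members are named to account for a list. Alternatives were TMM scaling, DESeq2 1.42.0, other filters, no block, subsets of animals by library number and leaving out each animal. An offset for transcript GC content, alone and with the numbered animals, was added after seeing the data. Some genes and 1 promoter sequence are not reported here.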

Additional observations from a re-analysis of the deposited data

Results flagged for a closer look

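The 4 HD animals with Day 9 blood but no control sample entered no comparison with control, and for 7 of 75 genes looked at all 4 values lay outside the range of the 24 control samples. Their lowest HBA level was 142 CPM (median 185 CPM), above the highest control at 70.8 CPM. Their lowest HBB level was 455 CPM, above the highest control at 327 CPM. For IFIT1 their lowest level was 211 CPM against a highest control of 118.5 CPM. For HYAL3 it was 114.6 CPM against 109.5 CPM, a narrow gap. On the other side their highest FCRLA level was 9.72 CPM, below the lowest control at 12.5 CPM. Their highest SOX5 level was 11.4 CPM, below the lowest control at 14.0 CPM, and their highest TBKBP1 level was 13.6 CPM, below 18.3 CPM. These are values of 4 samples with no test. The same count was not made over all tested genes, so the 7 of 75 have no background share beside them. The directions of these 7 are those found in the paired animals. Genes called in the pairs were called against these same 24 controls, so a match with them is no independent evidence. Of 65 of the 75 genes that were called in the pairs, the median of the 4 samples lay on the same side of the control median for 62. It lay on the other side for NRGN (267 CPM against a control median of 196.45 CPM), ITGA2B (189 against 167 CPM), both lower in the pairs, and POU1F1 (0.688 against 0.738 CPM), higher in the pairs.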

How the results depend on the processing

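Of the 75 named genes, 75 kept their direction and their side of the threshold with TMM scaling, with DESeq2 and with no filter. Other settings changed more. Named genes that kept their sign but lost their call numbered 6 in the numbered animals, 12 with the GC offset and 13 with both. They numbered 12 in animals with control library numbers 19 to 33, and 20 in the 4 number 0 animals alone. The counts of Day 9 genes called were 1041 with TMM, 1076 with DESeq2, 1265 with no filter and 904 with at least 10 counts, beside 1042 as reported. Without the animal as replicate block 1036 genes were called, and 71 of the 75 named genes stayed on their side of the threshold (not CCNG1, GATA2, ITGA2B and C1QA). Leaving out 1 animal at a time gave 890 to 1223 genes, and turned the sign only of TPPP3 (-0.047 to 0.093) and SLC28A3 (-0.203 to 0.047), neither of them called, and only C1QA, CCNG1, GATA2 and ITGA2B lost their call in any of these fits. The fits that moved the count by over 1.5 times were the GC offset (668), the GC offset in numbered animals (680) and the 4 number 0 animals alone (5664). In HD animals they were the numbered animals (698), the GC offset (657) and both together (570). In females they were the numbered animals (685) and the GC offset (426), and for Day 9 against Day 3 the GC offset (1023). The difference between doses had 25 calls with DESeq2 and 0 with edgeR. Signs that turned were CDKN1A in numbered animals (0.024), in animals with control library numbers 19 to 33 (0.085), with the GC offset (0.053) and with both (0.12). HTR1F turned under the same settings except the numbered animals alone (-0.065, -0.33 and -0.28). With the GC offset MAP3K7CL (-0.042, and -0.11 in numbered animals) and MBOAT2 (-0.012) also turned, and with limma on the log2 values TPPP3 (-0.057). In the 4 number 0 animals alone 10 genes turned: SELENBP1 (-0.18), KLF4 (-0.11), TPPP3 (-0.88), AHSP (-0.12), HYAL3 (-0.77), SLC25A39 (-0.88), PIH1D1 (-0.53), SLC28A3 (1.34), C1QA (-0.26) and C1QC (-0.22). The cause of these changes was not tested. These intervals and tests cover the spread between animals of this series, and genes near 1 CPM rest on few reads per library.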

Other observations

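Ribosomal protein and proteasome genes, which nucleated cells use, had medians of 0.23 and 0.12 on the log2 scale. Of 73 tested ribosomal protein genes 8 were called higher and none lower at Day 9, beside 5.15% of all tested genes called higher. Only 2 were called in the numbered animals and 6 with the GC offset. RPS24 had a log2 fold change of 0.89 ± 0.25 and RPS27L, a p53-responsive relative of a ribosomal protein, 0.83 ± 0.20. The count depended on single animals: it was 3 without B1004 or B2504, 5 without B1503, and 13 to 17 without B1006, B1505, B1506 or B2007. Within an animal the mean of the list was between -1.69 and 1.44, so animals differed widely and in both directions. Of 34 genes of the constitutive proteasome 3 were higher and none lower, beside the same 5.15%, led by PSMD9 (0.68 ± 0.11) and PSMC6 (0.68 ± 0.14), and 1 was called in the numbered animals and 1 with the GC offset.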
